A study of Mus musculus with 2 samples.

Results

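Cadherins are calcium-dependent adhesion molecules of the cell surface, and protocadherins are their largest group of relatives. The members described here are the rows of the deposited count table whose symbol is Cdh followed by a number or begins with Pcdh. Of 19674 gene rows in the table, 74 matched, 19 of them Cdh genes and 55 Pcdh genes. A member is called measured when it held at least 50 counts summed over both libraries, which 55 of the 74 did, against 13534 of all rows. RefSeq lists 93 mouse symbols of this form, and the 19 that were not matched, among them 13 of the 14 symbols of the alpha cluster, were not analysed here. Just inside the minimum lay Pcdh15 with 50 counts and Pcdhb9 with 52, and just outside it Pcdhb13 with 49 and Pcdh10 and Pcdhb3 with 44 each.

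The counts came from bulk RNA sequencing of MDFB, a wild-type mouse fibroblast line from skin. One group, labelled Vehicle, received vehicle and the other received IL-17A, an inflammatory cytokine. Each group was 1 library, and whether both were handled in 1 batch was not established here. The dose, the time of exposure and whether the line is a single clone are left unstated in the labels. With 1 library per group no difference has a replicate check and none carries a p-value, so ratios describe these libraries and not the conditions.

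Classical cadherins join neighbouring cells by binding cadherins on the opposite membrane, and their cytoplasmic tails hold catenins that connect to actin. Type I members such as Cdh1 (E-cadherin), Cdh2 (N-cadherin) and Cdh3 (P-cadherin) and type II members such as Cdh11 differ in the adhesive interface of the outermost domain, and Cdh11 is the cadherin known for joining fibroblasts and synovial lining cells. Protocadherins lack the catenin-binding tail. Most are encoded in the alpha, beta and gamma gene clusters on chromosome 18, where each variable exon has its own promoter, and in the alpha and gamma clusters the variable exon is spliced to constant exons shared by the whole cluster. The non-clustered protocadherins lie outside these clusters and are mostly studied in the developing nervous system.

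The vehicle library held 24427027 counts and the IL-17A library 23559416, and a count of 0 allowed up to 3 counts. All 12 fibroblast markers were measured. Their summed level in CPM, a count relative to the library size after TMM scaling, was 64388 for vehicle and 48161 for IL-17A. Of the 12, 8 had a lower level with IL-17A and 0 were at least 2-fold lower. The 1 at least 2-fold higher was Dcn, at 681 CPM with vehicle and 4186 with IL-17A. The 8 marker lists of other cell types ranged from 7.32 to 194 CPM with vehicle and from 5.35 to 267 with IL-17A. The keratinocyte markers Esrp1, Krt1, Krt15 and Grhl2, the melanocyte enzyme Tyr and the T-cell marker Cd3e were at 0 in both libraries. Other markers were present, among them the myeloid genes Lyz2 with 3836 vehicle and 5227 IL-17A counts and Csf1r with 408 and 402, Ptprc (CD45) with 87 and 88, the melanocyte factor Mitf with 465 and 827 and the neural crest factor Sox10 with 145 and 129. In bulk RNA, fewer cells of a type and less RNA per cell cannot be told apart.

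As among all measured genes, a few members differed by 2-fold or more and a large majority did not. Of the 55 measured members, 3 were higher by 2-fold or more with IL-17A (5.45%, where 5.19% of all measured genes were). Another 6 were lower by 2-fold or more (10.9%, where 3.69% of all measured genes were). The other 46 lay within 2-fold, as did 12332 of all 13534 measured genes. A ratio below 1 was found for 21 members (38.2%, with 49.7% of all measured genes) and a ratio above 1 for 34 (61.8%, with 50.3% of all). The higher members were Pcdh15, Cdh10 and Cdh6. The lower members were Cdh8, Pcdhac2, Cdh3, Pcdh9, Pcdh19 and Pcdh11x. The median log2 ratio of IL-17A over vehicle was 0.08 over the measured members and 0.00 over all measured genes. The share higher was near that of all genes, and the share lower was above it, a comparison of counts with no test. The same 9 members passed 2-fold under total-count, upper-quartile and DESeq2 scaling of the libraries.

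Markers of mural cells, the pericytes and smooth muscle of vessel walls, were lower with IL-17A, and so were some markers of other cell types. All 6 mural markers in the table had a lower level, and 4 of the 5 measured were at least 2-fold lower (3.69% of all measured genes were). The list summed to 163 CPM with vehicle and 61.0 with IL-17A. Cspg4 (NG2) had 2908 and 1070 counts and Notch3 had 692 and 167. The channel genes Kcnj8 and Abcc9 had 100 and 6 counts and 169 and 12 counts. Of the 3 measured endothelial markers, 2 were at least 2-fold lower, Tek with 49 and 18 counts and Erg with 53 and 9. So were 1 of the 2 measured epithelial and 1 of the 2 measured neuronal markers. The fibroblast, Schwann, melanocyte, skeletal muscle and leukocyte lists had 0. What part mural or other cells had in the lower ratios of Cdh8, Cdh3, Pcdh9, Pcdh19, Pcdh11x and Pcdhac2 was not tested.

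The clustered genes and the rest of the family differed in median ratio and summed level. Of the 21 measured members outside the clusters, 3 were higher (14.3%) and 5 lower (23.8%). Of the 34 clustered members, 0 were higher and 1 was lower (2.94%). Of all measured genes, 5.19% were higher and 3.69% lower, so the clustered counts were near the background for a set of this size. A 95% counting interval that included a ratio of 1 was found for 3 members outside the clusters (14.3%) and 20 clustered members (58.8%), against 44.9% of all measured genes. These are exact Clopper-Pearson intervals that cover counting error only, since 1 library per group gives no spread between cultures. They also take each read as an independent molecule, which copies made by PCR are not. Below, pairs of values give the vehicle library first and the IL-17A library second, and the range in parentheses after a fold is this interval. The median log2 ratio was -0.26 outside the clusters and 0.21 within them. In CPM, the members outside the clusters summed to 1754 with vehicle and 1323 with IL-17A, and the clustered members to 500.1 and 623.8 with IL-17A.

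**Figure D1:**
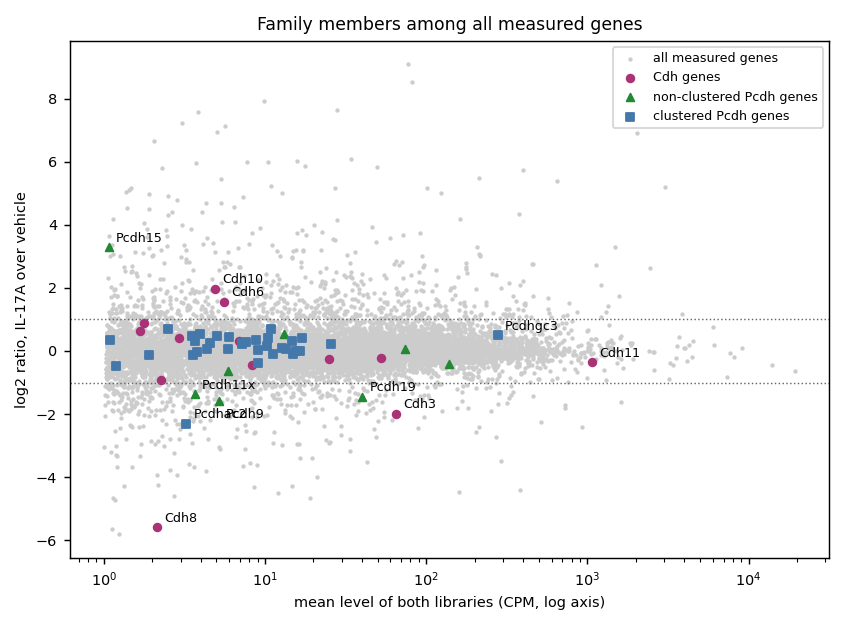
Log2 ratio of IL-17A over vehicle (vertical axis) against the mean level of both libraries in CPM (horizontal log axis) for all 13534 measured genes in grey, with a library at 0 set to 3 counts. Cdh genes are circles, non-clustered Pcdh genes triangles and clustered Pcdh genes squares. Dotted lines mark 2-fold. Of the 9 named members beyond the lines, Cdh8 lies lowest and Pcdh15 highest, both at low levels, while Cdh3 and Pcdh19 lie beyond the lines at higher levels.

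Promoters of members past 2-fold are shown because the lower and the higher ones with a promoter sequence differed in base composition. The clustered genes, Cdh2 and Pcdh1 were not analysed here for promoters. Of the other 19 measured members, RefSeq's promoter table for GRCm38.p6 held 12, and of the 8 of them past 2-fold it held 6. The 250 bases before the annotated start are printed on the gene's strand, 5′ to 3′, with CpG dinucleotides in capitals. The first 3 belong to members that were lower and the last 3 to members that were higher with IL-17A. Cdh3 and Pcdh11x, also lower by 2-fold or more, had no RefSeq promoter sequence.
Cdh8: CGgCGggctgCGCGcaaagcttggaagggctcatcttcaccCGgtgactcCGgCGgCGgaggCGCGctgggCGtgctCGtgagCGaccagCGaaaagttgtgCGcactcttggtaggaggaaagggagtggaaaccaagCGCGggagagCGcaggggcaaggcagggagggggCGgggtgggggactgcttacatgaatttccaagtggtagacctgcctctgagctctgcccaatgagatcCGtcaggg
Pcdh9: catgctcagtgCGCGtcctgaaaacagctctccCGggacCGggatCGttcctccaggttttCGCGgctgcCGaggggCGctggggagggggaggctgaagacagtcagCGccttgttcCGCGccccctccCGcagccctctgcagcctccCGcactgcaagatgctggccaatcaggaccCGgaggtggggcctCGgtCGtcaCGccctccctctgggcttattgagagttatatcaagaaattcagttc
Pcdh19: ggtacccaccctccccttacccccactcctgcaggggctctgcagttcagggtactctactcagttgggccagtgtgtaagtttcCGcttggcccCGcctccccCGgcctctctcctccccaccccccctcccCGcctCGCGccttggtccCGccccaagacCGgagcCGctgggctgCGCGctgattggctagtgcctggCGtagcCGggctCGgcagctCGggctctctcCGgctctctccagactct
Cdh6: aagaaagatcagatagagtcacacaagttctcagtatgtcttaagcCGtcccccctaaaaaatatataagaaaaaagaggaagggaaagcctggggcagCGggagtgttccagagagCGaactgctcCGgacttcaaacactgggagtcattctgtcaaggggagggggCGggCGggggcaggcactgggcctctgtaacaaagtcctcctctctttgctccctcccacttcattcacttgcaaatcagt
Cdh10: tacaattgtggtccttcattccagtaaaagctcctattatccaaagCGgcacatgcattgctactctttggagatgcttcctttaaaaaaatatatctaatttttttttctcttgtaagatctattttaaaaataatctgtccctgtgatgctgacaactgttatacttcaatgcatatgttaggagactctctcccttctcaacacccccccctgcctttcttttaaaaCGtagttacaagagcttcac
Pcdh15: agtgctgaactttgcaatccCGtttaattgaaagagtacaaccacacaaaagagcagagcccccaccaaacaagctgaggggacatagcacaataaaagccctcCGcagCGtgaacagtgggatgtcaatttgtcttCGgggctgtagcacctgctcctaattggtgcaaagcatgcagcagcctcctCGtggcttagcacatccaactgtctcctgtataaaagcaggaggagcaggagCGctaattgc
The windows are chr8:99416472-99416721 on the minus strand for Cdh8, chr14:93890680-93890929 on the minus strand for Pcdh9 and chrX:133688994-133689243 on the minus strand for Pcdh19. They are chr15:13173676-13173925 on the minus strand for Cdh6, chr15:18820079-18820328 on the plus strand for Cdh10 and chr10:73821617-73821866 on the plus strand for Pcdh15. In GENCODE M21, 80 bases of the Cdh8 window lie in exons annotated outside Cdh8, and the other printed windows hold no exon. The starts of Cdh10 and Pcdh15 lie inside their GENCODE genes, which begin further upstream, and which start these cells use was not measured.

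The 3 windows of the lower members held 20 CpGs for Cdh8, 18 for Pcdh9 and 16 for Pcdh19. Those of the higher members held 6 for Cdh6, 2 for Cdh10 and 6 for Pcdh15, and the median over all 32851 windows in the table was 6. GC content was 64.4%, 63.6% and 69.2% for Cdh8, Pcdh9 and Pcdh19 and 51.2%, 36.8% and 50.4% for Cdh6, Cdh10 and Pcdh15, with a median of 52.4% over all windows. CpG count did not order the members by ratio, because Pcdh18 with 23 CpGs and Cdh24 with 22 lay within 2-fold, and Pcdh20 with 3 and Cdh26 with 0 were below a ratio of 1. These are descriptions of 12 genes and not a test.

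Motifs of factors that act below the IL-17 receptor were searched on both strands of the same 250 bases. The NF-kB pattern GGANTTTCC was in 0 of the 13 windows of the 12 members and in 1.07% of all windows. A looser NF-kB pattern, GGG and CC with 5 free bases between them, was in 4 of the 13 (Pcdh19, Cdh24, Pcdh18 and Cdh23) and in 45.8% of all windows. In the printed Pcdh19 window it begins 104 bases before the start. The C/EBP pattern TTGCNNAA and the AP-1 pattern TGANTCA were in 0 of the 13, against 9.56% and 6.75% of all windows. The TATA pattern TATAAA and the E-box CACCTG, a sequence bound by Snail and Zeb repressors, were each in 1 window, that of Pcdh15, against 12.4% and 17.2% of all. Neighbouring matches of the looser pattern overlapped in Pcdh18 and Cdh24, and none overlapped another motif.

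Among type I cadherins, P-cadherin was the member that stood apart. Cdh3 held 2605 vehicle and 601 IL-17A counts, or 104 and 26.1 CPM, a level 3.99-fold lower (3.65 to 4.37). Cdh3 is best known from basal epithelium and hair follicles, and the 10 epithelial markers in the table summed to 7.32 CPM with vehicle and 5.35 with IL-17A. Sfn made most of that sum with 121 vehicle and 54 IL-17A counts, and of the 2 measured markers it was the 1 at least 2-fold lower. The other, Krt10, had 28 and 27 counts. Under the minimum, Krt5 had 14 and 8 counts and Krt14 had 10 and 26. What part epithelial cells had in the Cdh3 counts was not tested. Cdh3 lies on chromosome 8 of GRCm38, the assembly also called mm10, at 106510891 to 106557297. Its neighbour Cdh1, at 106603351 to 106670246, was under the minimum at 1 vehicle and 9 IL-17A counts.

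N-cadherin differed much less. Cdh2, on chromosome 18 at 16588877 to 16809246, had 1413 and 1109 counts, a level 1.17-fold lower (1.08 to 1.27) with IL-17A. Cdh4 (R-cadherin) had 154 and 178 counts, a level 1.26-fold higher (1.01 to 1.57), an interval just above 1. Cdh15 (M-cadherin of muscle) was under the minimum at 13 and 12 counts. Summed over the 5 type I genes the level was 167 CPM with vehicle and 82.96 with IL-17A, and Cdh3 made most of that difference.

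The type II cadherins held the most abundant member of the family and 3 of the 9 past 2-fold. Cdh11 had 30226 vehicle and 21615 IL-17A counts, or 1209 and 939 CPM. It was 1.29-fold lower (1.26 to 1.31), inside the 2-fold limit. The gene lies on chromosome 8 at 102632095 to 102785642. Of all Cdh counts, Cdh11 took 84.5% (exact binomial 95% interval 84.1 to 84.9) with vehicle and 87.0% (86.6 to 87.5) with IL-17A, so its share was larger in the library where its level was lower.

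Cdh8, a type II cadherin known from brain, was nearly absent with IL-17A. It held 105 vehicle and 2 IL-17A counts, 48.3-fold lower (13.0 to 404), on chromosome 8 at 99024471 to 99416471. Its interval was the widest of the lower members because it rests on 2 counts, and a prior count of 2 in each library moved its log2 ratio from -5.59 to -4.65. Of the 4 neuronal markers in the table, 2 had a lower level with IL-17A. These were Map2, with 235 vehicle and 25 IL-17A counts, and Stmn2, with 11 and 5. Tubb3 was nearly even at 58.7 and 59.7 CPM, and Elavl4 had 5 and 22 counts. The list summed to 68.8 and 62.0 CPM. What part neuronal markers had in the Cdh8 ratio was not tested.

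Cdh10 and Cdh6, type II cadherins also best known from brain and kidney development, were higher with IL-17A. Cdh10 had 50 vehicle and 181 IL-17A counts, a level 3.93-fold higher (2.86 to 5.49). Cdh6 had 71 and 193 counts, a level 2.95-fold higher (2.24 to 3.93). The genes lie on chromosome 15, Cdh6 at 13028701 to 13173675 and Cdh10 at 18818947 to 19014236. Between and beyond them lie Cdh9, at 16728756 to 16857094, with 0 and 5 counts, and Cdh18, at 22549022 to 23474418, with 3 and 11. All 4 chromosome 15 members in the table had more counts with IL-17A, but the last 2 were under the minimum, and the 5 counts of Cdh9 barely exceed the 3 that a count of 0 allows.

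The remaining type II members lay within 2-fold. Cdh24 had 241 and 163 counts, a level 1.36-fold lower (1.11 to 1.67). Cdh19, a Schwann cell cadherin, had 63 and 77 counts, and its interval of 0.940 to 1.88 for the fold higher included 1. The 8 Schwann and neural crest markers summed to 38.9 and 43.2 CPM. Cdh5 (VE-cadherin of endothelium) had 33 and 47 counts with an interval of 0.971 to 2.49, while the 10 endothelial markers summed to 8.36 CPM with vehicle and 5.48 with IL-17A. What part such cells had in these counts was not tested.

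Of the cadherins outside types I and II, none of the 3 measured was past 2-fold. Cdh13 (T-cadherin), which is anchored to the membrane by a lipid and has no cytoplasmic tail, had 679 and 523 counts, a level 1.19-fold lower (1.06 to 1.34). Cdh26 had 74 and 36 counts, a level 1.89-fold lower (1.25 to 2.90). Cdh23, a tip-link component of sensory hair cells, had 31 and 53 counts, a level 1.86-fold higher (1.17 to 2.99). The intervals of Cdh26 and Cdh23 reached past 2-fold, so counting error alone leaves their side of that limit unsettled.

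**Figure D2:**
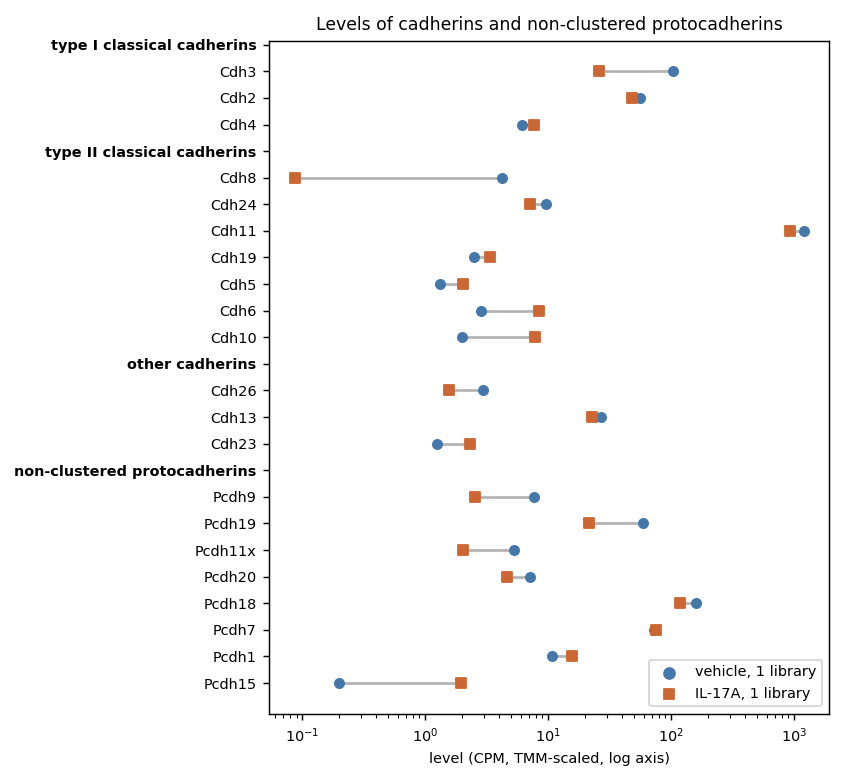
Level in CPM (horizontal log axis) of the 21 measured members outside the clusters, with circles for the vehicle library and squares for the IL-17A library, grouped by class and ordered by ratio within it. The widest gaps are those of Cdh8, from 4.20 to 0.0869 CPM, and Pcdh15, from 0.20 to 1.96 CPM, and Cdh11 lies far to the right in both libraries.

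The non-clustered protocadherins went both ways with IL-17A. Of the 8 measured, 3 were at least 2-fold lower (Pcdh9, Pcdh19 and Pcdh11x, where 3.69% of all measured genes were) and 1 was higher (Pcdh15, where 5.19% were). A ratio below 1 was found for 5 of the 8, close to the 49.7% of all measured genes for so few members, and the median log2 ratio was -0.53. Pcdh19, a member of the delta-2 subgroup that acts together with N-cadherin, had 1474 vehicle and 494 IL-17A counts. It was 2.75-fold lower (2.48 to 3.05), the narrowest interval of the protocadherins past 2-fold. It lies on chromosome X at 133582860 to 133688987.

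In the delta-1 subgroup, 2 members were past 2-fold and 2 were not. Pcdh9 had 194 and 59 counts, a level 3.03-fold lower (2.25 to 4.12), on chromosome 14 at 93013410 to 93890679. Pcdh11x, on chromosome X at 120290259 to 120910619, had 133 and 47 counts, a level 2.60-fold lower (1.85 to 3.71), with an interval that reached inside the 2-fold limit. Pcdh7 had 1831 and 1741 counts, and its interval of 0.967 to 1.10 for the fold higher included 1. In GENCODE, 2235 of its exonic bases overlap an antisense gene, 4932441J04Rik, which held 15 and 14 counts. Pcdh1, known from airway epithelium, had 269 and 360 counts, a level 1.45-fold higher (1.24 to 1.71). The 4 delta-1 genes thus went both ways.

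Pcdh18, the most abundant non-clustered protocadherin and a delta-2 member, had 3973 and 2729 counts, a level 1.34-fold lower (1.28 to 1.41). Pcdh20 had 180 and 106 counts, a level 1.56-fold lower (1.22 to 2.01). Of the delta-2 genes under the minimum, Pcdh10 had 38 and 6 counts and Pcdh17 had 11 and 17. Of the 4 delta-2 genes in the table, 3 thus had fewer counts with IL-17A, 1 of them under the minimum.

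Pcdh15, a partner of Cdh23 in the tip link of hair cells, was the member with the highest ratio. It had 5 vehicle and 45 IL-17A counts, a level 9.78-fold higher (3.90 to 31.6), on chromosome 10 at 73099342 to 74649737. It reached the minimum of 50 exactly and, with 5 vehicle counts, only through the IL-17A library, so its passing lends its ratio no weight. Likewise Cdh8, Pcdhac2 and Pcdh11x, with 2, 25 and 47 IL-17A counts, passed through the vehicle library, where they were higher. Its exons span 23773 bases, and per kilobase of exon it was the lowest measured member with vehicle, at 0.00841 CPM.

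**Figure D3:**
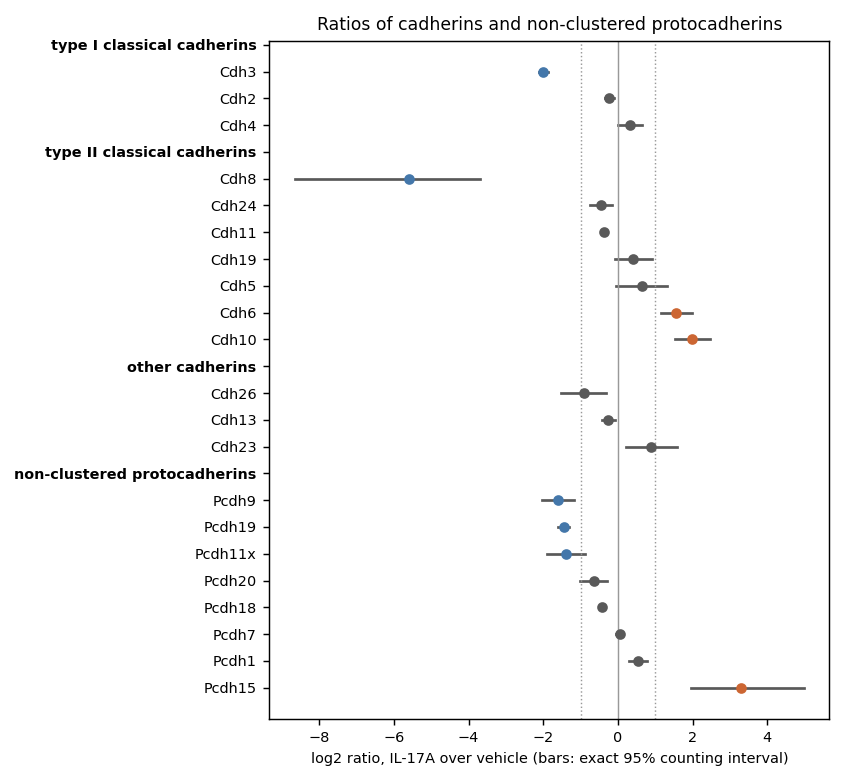
Log2 ratio of IL-17A over vehicle (horizontal axis) with exact 95% counting intervals as bars for the same 21 members, dotted lines at 2-fold. Blue points are at least 2-fold lower, orange at least 2-fold higher and grey within. The whole interval lies beyond 2-fold for Cdh3, Cdh8, Pcdh9 and Pcdh19 on the low side and Cdh6, Cdh10 and Pcdh15 on the high side, while that of Pcdh11x crosses the limit.

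Clustered protocadherins must be read with their shared sequence in mind. In GENCODE the gamma genes each share between 2116 and 3157 exonic bases with another gene on the same strand, chiefly the constant exons. Pcdhgb8 held 15 and 22 counts, so no more reads than that can have been assigned to all gamma genes at once. Of the 75-base stretches of each transcript, 26.4% (Pcdhgc5) to 63.8% (Pcdhga4) recurred in another family member for the gamma genes, 0 to 8.96% for the beta genes, 48.0% for Pcdhac2 and 0% for every member outside the clusters. The treatment of reads shared between genes is not given in the sources used here, so single gamma genes and Pcdhac2 are uncertain. Levels between genes are therefore compared per kilobase of exon that no other gene on the strand shares.

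The alpha cluster was represented by Pcdhac2 alone, a C-type gene at its end. It had 135 vehicle and 25 IL-17A counts, a level 4.97-fold lower (3.23 to 7.95), at 37143503 to 37187657 on chromosome 18. No other measured clustered gene was past 2-fold. The gamma C-type genes, which resemble Pcdhac2 in kind, all had ratios above 1.

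The gamma cluster was higher as a whole by less than 2-fold. Its 22 genes summed to 10740 counts in the vehicle and 12661 in the IL-17A library, 1.28-fold higher (1.25 to 1.31). Pcdhgc3 made up most of this sum with 5776 and 7526 counts, a level 1.42-fold higher (1.37 to 1.47), at 37806364 to 37841873. Its share of gamma counts was 53.8% (exact binomial 95% interval 52.8 to 54.7) with vehicle and 59.4% (58.6 to 60.3) with IL-17A. Without Pcdhgc3 the cluster was 1.12-fold higher (1.08 to 1.17). An antisense gene, BC037039, overlaps 1559 exonic bases of Pcdhgc3 and held 94 and 163 counts, and without a stated strand setting reads of the pair cannot be told apart.

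The gamma subfamilies differed in size of ratio. The 3 C genes had log2 ratios of 0.48 for Pcdhgc4, 0.50 for Pcdhgc3 and 0.69 for Pcdhgc5, each with an interval above 0. Pcdhgc5 had 209 vehicle and 311 IL-17A counts. All 6 measured B genes were above 0, from 0.07 for Pcdhgb5 to 0.36 for Pcdhgb7, 3 of them with an interval above 0. Of all 13534 measured genes, 50.3% had a log2 ratio above 0 and 3879 had an interval above 0. Subfamilies this small were not tested against those shares. The 12 A genes ranged from -0.37 for Pcdhga6 to 0.55 for Pcdhga9, with 4 intervals above 0 and 1 below. That 1 was Pcdhga6, with 254 and 181 counts, 1.29-fold lower (1.06 to 1.57). Summed A genes had 2995 and 2898 counts, a fold of 1.05 with an interval of 0.999 to 1.11.

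The beta genes, single-exon genes without constant exons, were close to even. The 21 in the table summed to 1633 counts in the vehicle and 1668 in the IL-17A library, 1.11-fold higher (1.04 to 1.19). Of the 12 measured, 8 were above a ratio of 1 (50.3% of all measured genes) and 4 below (49.7%), and 10 intervals included 1 (44.9%). The others were the neighbours Pcdhb21, with 48 and 71 counts and a log2 ratio of 0.68 (interval 0.14 to 1.24), and Pcdhb22, with 364 and 446 counts and 0.41 (interval 0.21 to 0.62). They share 455 exonic bases, so their counts are not independent of the annotation's split. Pcdhb22 and Pcdhb17 took 22.3% and 19.0% of the beta sum in the vehicle library, and 26.7% and 18.2% with IL-17A.

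**Figure D4:**
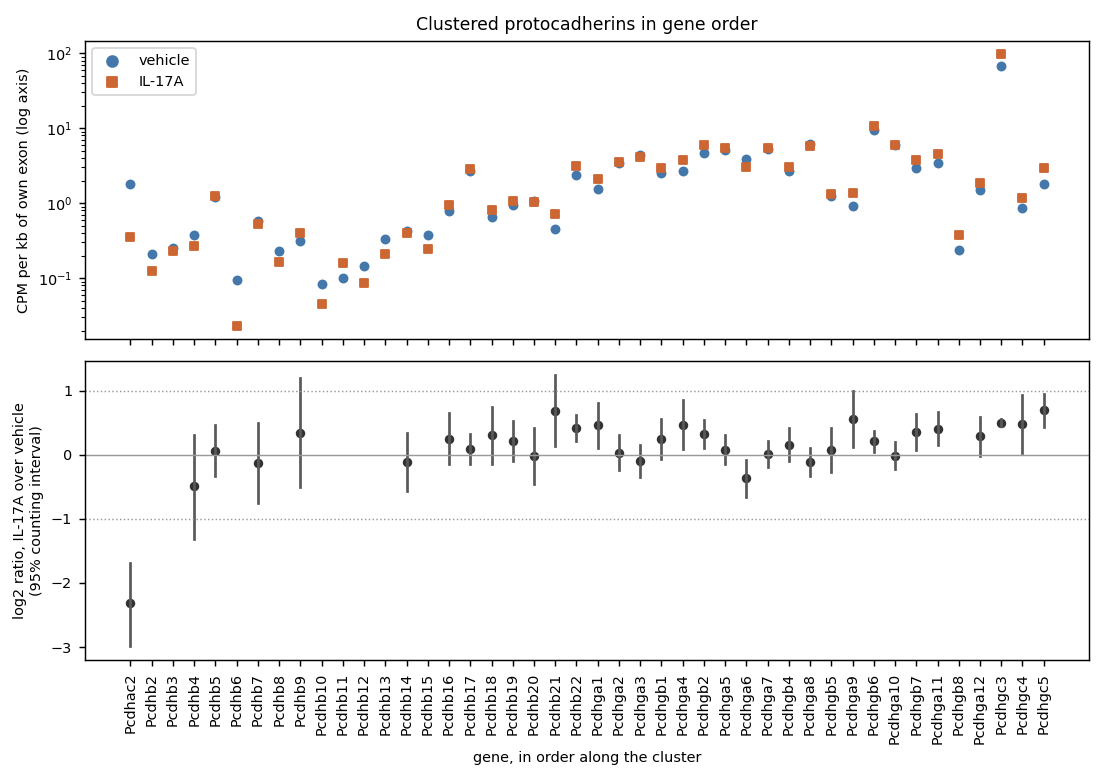
The 44 clustered protocadherins in their order along the chromosome. The upper panel gives CPM per kilobase of own exon (log axis) with circles for vehicle and squares for IL-17A, and the lower panel the log2 ratio with its 95% counting interval for the 34 measured genes. Pcdhgc3 stands highest in both libraries, and Pcdhac2 is the 1 gene past 2-fold, drawn as dotted lines.

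Per kilobase of own exon the order at the top of the family was Cdh11, Pcdhgc3 and Pcdh18 in both libraries. Cdh11 stood at 136 CPM per kilobase with vehicle and 105 with IL-17A, Pcdhgc3 at 68.3 and 96.8, and Pcdh18 at 29.6 and 22.1. With IL-17A the counting intervals of Cdh11, 104 to 107, and Pcdhgc3, 94.6 to 99.0, came close to each other without overlap. That closeness depends on the length used. Per kilobase of all its exons, shared ones included, Pcdhgc3 stood at 42.0 and 59.5, far below Cdh11. The 15 and 22 counts of Pcdhgb8 leave few shared-exon reads that can have been counted for every gamma gene. The length of all exons would thus apply only if shared reads were credited to Pcdhgc3 and not to all. Whether they were is unknown without the treatment of shared reads, and the intervals do not cover it. Cdh3 ranked 4 with vehicle at 23.8 CPM per kilobase and 7 with IL-17A at 5.96 (interval 5.49 to 6.45), where its interval overlapped that of Cdh2 (5.63 to 6.34). Pcdhgb6 was at 9.37 and 10.8 per kilobase of own exon, and at 5.13 and 5.92 per kilobase of all its exons. Pcdh19 ranked 10 with vehicle at 5.63 and 25 with IL-17A at 2.05.

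Of the catenins and other proteins of the cadherin junction, 1 was past 2-fold. Of the 29 on the list, 25 were measured, 0 were at least 2-fold higher (5.19% of all measured genes) and 1 was lower (3.69% of all), counts near the background for a list of this size. The median log2 ratio was -0.08, 18 of the 25 were below a ratio of 1 (49.7% of all), and the counting interval of 13 lay wholly below 1 (26.5% of all). The 1 was Arvcf, a delta-catenin relative that binds the membrane-proximal part of cadherin tails, with 709 counts in the vehicle and 288 in the IL-17A library, a log2 ratio of -1.18 (interval -1.38 to -0.98). Ctnnb1 (beta-catenin) had 18533 and 18321 counts, a log2 ratio of 0.10. The actin-binding proteins Actn1, Actn4 and Vcl stood at -0.06, -0.12 and -0.55. The other members, picked with their values in view, ranged from Plekha7, a partner of delta-catenin, at 0.98, through Ctnna1 (alpha-catenin) at -0.01 and Ctnnd1 (delta-catenin) at -0.02, to Jup (plakoglobin) at -0.44, the receptor phosphatase Ptprm at -0.59 and Ctnnal1 (alpha-catulin) at -0.62.

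Transcription factors known for switching E-cadherin to N-cadherin went both ways. Of 13 listed, 9 were measured, 1 was past 2-fold on the high side and 0 on the low side, near the 5.19% and 3.69% of all measured genes for so short a list. The median log2 ratio was -0.23. Twist2 had 5088 and 10423 counts and a log2 ratio of 1.15. The abundant members Prrx1, Zeb2 and Tcf3 stood at 0.72, 0.68 and -0.25, and Twist1, Snai1 and Snai2, which were picked with their values in view, at -0.82, -0.23 and -0.60. The epithelial factor Grhl2 had 0 counts in both libraries.

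No listed regulator of the clustered promoters or partner of protocadherin tails was past 2-fold, which for lists of this size is near the share of all measured genes (5.19% higher and 3.69% lower). All 16 listed regulators were measured and 0 were past 2-fold in either direction. Of the 16, 11 were below a ratio of 1, against 49.7% of all measured genes, and the median log2 ratio was -0.14. The cohesin subunits Rad21 and Smc1a stood at -0.03 and -0.45, the maintenance methyltransferase Dnmt1 at -0.48 and Hnrnpul2 at -0.14. Ctcf, which brings cluster promoters to their enhancers, and Smchd1, a silencer of the clusters, stood at -0.20 each and were picked with their values in view. Of the 17 listed cytoplasmic partners, all measured, 0 were past 2-fold, 9 were below a ratio of 1 (49.7% of all), and the median was -0.02. The actin-regulating WAVE complex members Nckap1, Wasf2 and Cyfip1 stood at 0.12, -0.20 and 0.01, and the phosphatase Ppp1ca at -0.02.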

How the data were processed

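Fibroblasts of 1 mouse line were sequenced as 1 vehicle and 1 IL-17A library. Raw counts, 1 column per library, were deposited by the authors with gene symbols as row names. STAR, featureCounts and the build mm10 are named per the submitters' processing notes. Tool versions, the strand setting and the treatment of shared reads were not given in the sources used here. TMM factors from edgeR 4.0.16 (R 4.3.3) set the library sizes. Ratios with exact 95% Clopper-Pearson counting intervals (scipy 1.17.1) were taken at a minimum of 50 summed counts, and called at 2-fold. No test was run, because a group of 1 library gives edgeR's quasi-likelihood fit no residual degrees of freedom. DESeq2 1.42.0 served for its size factors. The calculation was tested on simulated data. Coordinates, exon lengths and overlaps came from GENCODE M21 (GRCm38), and promoters from RefSeq. The members and lists were chosen with earlier results of these data known. Every measured member may be named. Of each other list, members past 2-fold and the 4 most abundant are named. Other scalings, minimums, fold limits and a prior count were tried.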

Additional observations from a re-analysis of the deposited data

How the results depend on the processing

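With 1 library per group no library could be left out. No paired analysis was possible because each group held 1 library and no test was made. The counts of 3 members higher and 6 lower held under total-count, upper-quartile and DESeq2 scaling. The number higher was 6 with a minimum of 10 counts, 6 with no minimum (a library at 0 set to 3 counts) and 7 under a 1.5-fold rule. The number lower was 3 with a minimum of 200, which drops genes of few counts. The summed gamma cluster was 1.22-fold higher under total-count scaling and 1.25-fold under upper-quartile scaling. As alternatives chosen after seeing the data, it was 1.12-fold higher without Pcdhgc3, and the median log2 ratio of members was -0.26 without the clustered protocadherins. Total-count scaling lowered every log2 ratio by 0.07 and put Pcdh7, Pcdhb5, Pcdhga2 and Pcdhga7 below 0, and upper-quartile scaling did so for Pcdhga2 and Pcdhga7. Members with under about 50 counts in a library are limited by depth.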

Other observations

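Cadherin-superfamily genes outside the Cdh and Pcdh symbols had 1 member at least 2-fold higher and 1 lower among 9 measured of 27 listed. Of all measured genes 5.19% were higher and 3.69% lower, and so short a list cannot be set apart from those shares. The median log2 ratio was -0.05. Clstn2, a calsyntenin with a pair of cadherin repeats known from synapses, had 83 vehicle and 606 IL-17A counts, a log2 ratio of 2.99 (interval 2.66 to 3.34). Fat3, a giant atypical cadherin, had 70 and 5 counts and stood at -3.69 (interval -5.35 to -2.40). The abundant members Fat1, Clstn1, Dchs1 and Fat4 stood at -0.79, -0.24, -0.05 and -0.36, so the giant cadherin most expressed here, Fat1, with 8972 and 4787 counts, was lower by less than 2-fold. The desmosomal cadherins, which hold epithelial sheets together, were all under the minimum, and the one with the most counts, Dsc2, had 16 in each library.

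Among members of the family under the minimum, picked with their values in view, Cdh22 had 1 vehicle and 13 IL-17A counts. Pcdh10 went the other way with 38 and 6 counts, 5.83-fold lower (2.44 to 16.9), and Pcdhb6 had 9 and 2 counts with an interval that included 1. Cdh17 had 4 and 3 counts and Pcdh12 had 1 and 1.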
